A study of Mus musculus with 6 samples.

Results

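Keratin genes were among those that separated the transformed STOSE cells from the M0505 cells they arose from, and the family did not move as a block. *Krt19* and *Krt8*, keratins of simple epithelia, were lower in STOSE cells by 47.2-fold and 23.5-fold, while *Krt18* and *Krt7*, their usual companions, were lower by 1.79-fold and 2.04-fold. *Krt14*, a keratin of the basal layer of stratified epithelia, was higher by 10.2-fold, and *Krt5*, its usual partner, stayed near the array background in both lines.

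Described here are 10 keratin genes of the 50 keratin genes (symbols of Krt and a number) and the 20405 genes on the array. *Krt7*, *Krt8*, *Krt18*, *Krt19* and *Krt20* are keratins of simple epithelia, *Krt5*, *Krt14*, *Krt15* and *Krt17* are found in the basal layer or the appendages of stratified epithelia, and *Krt80* is an epithelial keratin outside both of these classes. The genes were named with earlier results of these arrays known. The probe set of each gene was chosen by the highest mean over the 6 arrays, and since every one of the 10 genes had 1 probe set, that rule decided nothing here. How many of the 10 changed was therefore fixed in part by how the group was drawn up, and counts over the group are given as a description beside the share of all genes.

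M0505 is a line of ovarian surface epithelial cells from FVB/N mice, whose passage at hybridization the labels do not give. The paper describes the M0505 cells of its array comparison as early passage, without a number for the arrays. STOSE is the line that arose from M0505 by spontaneous transformation in long culture, so both share the strain and the origin. The lines differ in time in culture as well as in transformation, and the design does not separate these. Neither was treated, and both grew in the same murine OSE medium, an α-Minimal Essential Medium with fetal calf serum, EGF, ITSS, gentamicin, streptomycin and penicillin. Each line has 3 arrays, labelled as biological replicates, on which total RNA was read with the Affymetrix Mouse Gene 1.0 ST design. Arrays of the same line correlated at 0.997 to 0.999 over genes and arrays of different lines at 0.943 to 0.95. Each group is a single cell line, so a p-value measures the spread between these arrays and not that between independent transformations.

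Keratins are the intermediate filament proteins of epithelial cells. A filament is built from pairs of 1 acidic type I chain and 1 basic type II chain, and an unpaired chain is usually degraded. *Krt8* and *Krt18* form the first such pair of the embryo and the main pair of simple epithelia, to which *Krt7* and *Krt19* are added in ducts, mesothelium and ovarian surface epithelium. *Krt5* and *Krt14* form the pair of the basal epidermal layer. The genes lie in a type II cluster on mouse chromosome 15 and a type I cluster on chromosome 11, and *Krt18*, although a type I gene, sits beside *Krt8* at the end of the type II cluster.

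To show what lies directly upstream of the simple epithelial keratins that moved by such different amounts, the 250 bases before the RefSeq start of *Krt8* (GRCm38.p6, chr15:102004343-102004592, minus strand), *Krt18* (chr15:102027966-102028215, plus strand) and *Krt7* (chr15:101412153-101412402, plus strand) are printed 5′ to 3′. Capitals mark matches on either strand to any of 5 short motifs, and no match overlapped another.

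Krt8: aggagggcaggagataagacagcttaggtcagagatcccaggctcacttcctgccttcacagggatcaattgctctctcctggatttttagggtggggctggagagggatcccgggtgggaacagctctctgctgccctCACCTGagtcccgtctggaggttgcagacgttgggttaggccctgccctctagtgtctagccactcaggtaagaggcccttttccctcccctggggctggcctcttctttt
Krt18: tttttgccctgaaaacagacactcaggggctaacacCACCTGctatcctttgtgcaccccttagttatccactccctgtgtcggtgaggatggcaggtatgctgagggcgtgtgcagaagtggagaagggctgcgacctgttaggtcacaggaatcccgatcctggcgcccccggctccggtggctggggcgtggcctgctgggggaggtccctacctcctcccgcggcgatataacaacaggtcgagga
Krt7: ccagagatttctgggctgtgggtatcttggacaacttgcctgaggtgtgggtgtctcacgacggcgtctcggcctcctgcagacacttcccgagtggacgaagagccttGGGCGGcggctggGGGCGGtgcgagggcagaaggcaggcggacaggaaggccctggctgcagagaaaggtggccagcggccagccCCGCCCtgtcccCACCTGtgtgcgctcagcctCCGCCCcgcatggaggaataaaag

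The motif CACCTG, an E-box that factors of the SNAIL and ZEB families can bind, was found on either strand in these 3 windows and in that of *Krt5*, but not in that of *Krt20*. Of the 32851 promoter windows of the same length, 17.2% held it. The SP1 motif GGGCGG was found 4 times upstream of *Krt7* and in none of the other 4 windows, against 32.7% of all windows. The TATA box motif TATAAA was found only upstream of *Krt20*, and 12.4% of all windows held it. The AP-1 motif TGANTCA was in none of the 5 windows and in 6.75% of all. The grainyhead motif AACCNGTT was likewise in none of the 5 and in 1.79% of all. The window listed for *Krt14* did not start at the end of that gene in the same annotation and was not used, and *Krt15*, *Krt17*, *Krt19* and *Krt80* had no window. A match of letters is a description and not a binding site.

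Values are robust multi-array average (RMA) values, a log2 scale on which the probes of a gene are summarized after background correction and quantile normalization. Levels of different genes are not compared, because each gene is read by its own probes. Olfactory receptor genes, which should be silent in these cells, served as a yardstick of background, and the 95th percentile of their probe sets was 4.74. Of the 10 keratins, 8 had a mean above that value in M0505 cells and 9 in STOSE cells, and *Krt20* was under it in both. A gene was called higher or lower at a limma adjusted p under 0.05 (Benjamini-Hochberg, over all 20405 genes) and a fold change of at least 2.

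**Figure D1:**
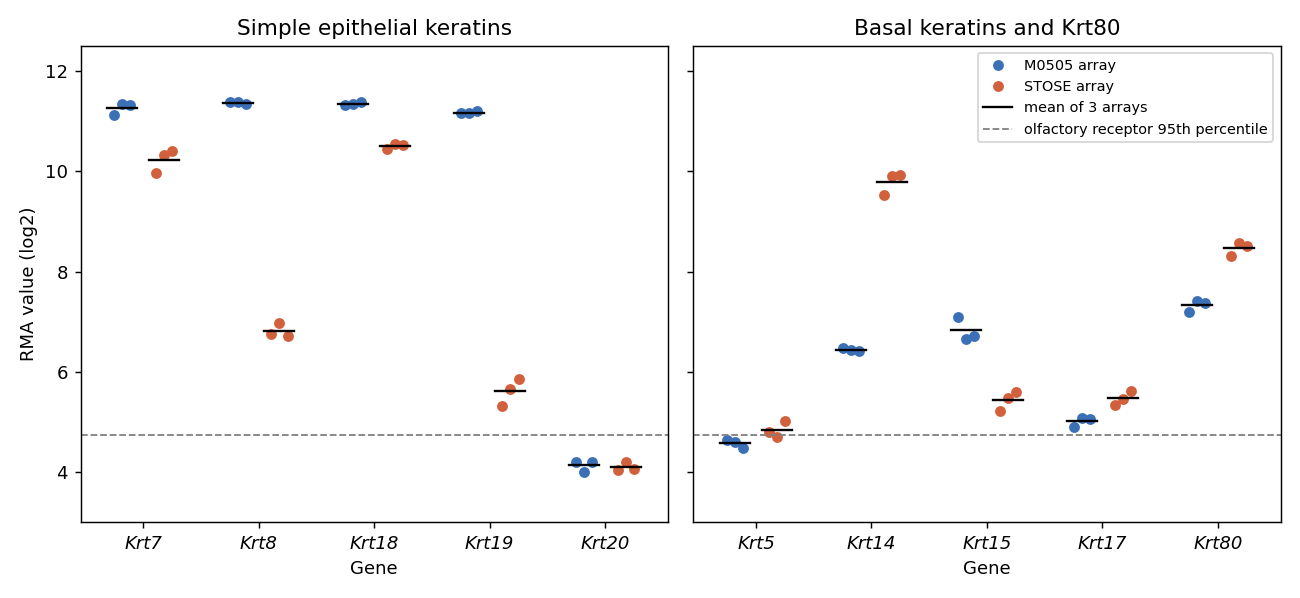
RMA values (log2) of the 10 keratins on each array, with M0505 arrays in blue, STOSE arrays in orange, the mean of the 3 arrays as a black line and the olfactory receptor 95th percentile (4.74) dashed. *Krt8* and *Krt19* fell from above 11 to under 7, *Krt14* rose from 6.44 to 9.78, and *Krt5* and *Krt20* lay near the dashed line in both lines.

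By these thresholds 4 of the 10 keratins were lower in STOSE cells (*Krt19*, *Krt8*, *Krt15* and *Krt7*) and 2 were higher (*Krt14* and *Krt80*). Of all genes, 7.59% were called lower and 4.9% higher. Without the fold threshold 9 keratins passed, 5 lower and 4 higher, against 56.5% of all genes in either direction. The 3 STOSE arrays did not overlap the 3 M0505 arrays for 9 of the 10, against 64.6% of all genes. As bulk RNA was measured, fewer cells with a transcript and less of it per cell cannot be told apart.

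*Krt19* encodes the smallest keratin, a type I chain with almost no tail. It read 11.16, 11.16 and 11.20 on the M0505 arrays. On the STOSE arrays it read 5.32, 5.66 and 5.86. The lines were far apart, with 5.29 log2 units between the nearest arrays. The spread was wider in STOSE cells (SD 0.27) than in M0505 cells (SD 0.02, n = 3 each). The STOSE mean of 5.61 was above the olfactory receptor percentile of 4.74 but near it, so the size of the fold rests on a value near background. STOSE minus M0505 was a log2 fold change of −5.56 (standard error 0.12, limma adjusted p = 1.14e-08), which ranked 18 among the 1548 genes called lower.

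*Krt8* encodes the type II chain of the main simple epithelial pair. Its M0505 arrays read 11.39, 11.38 and 11.34, and its STOSE arrays read 6.76, 6.98 and 6.72. The STOSE arrays lay at least 4.36 log2 units under the M0505 arrays, yet above the olfactory receptor percentile. The log2 fold change was −4.55 (standard error 0.08, limma adjusted p = 4.98e-09), which ranked 58 among the genes called lower.

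*Krt18* encodes the type I partner of that pair and lies next to *Krt8*. It read 11.33, 11.34 and 11.37 in M0505 cells and 10.45, 10.54 and 10.52 in STOSE cells. The lines did not overlap, but the difference was small beside that of *Krt8*, at a log2 fold change of −0.84 (standard error 0.06, limma adjusted p = 4.49e-06, 95% interval −0.97 to −0.71). At 1.79-fold *Krt18* was under the fold threshold and was not called.

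*Krt7* encodes a second type II chain of simple epithelia. It read 11.12, 11.34 and 11.32 in M0505 cells and 9.96, 10.33 and 10.41 in STOSE cells. Replicate 1 was the lowest array within each line, and the lines did not overlap. The log2 fold change was −1.03 (standard error 0.12, limma adjusted p = 0.000135, 95% interval −1.31 to −0.75), close to the 2-fold line. For *Krt7* it was −0.89 without STOSE replicate 1, −0.99 without M0505 replicate 2 and −0.997 without M0505 replicate 3, each under 2-fold.

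*Krt20*, a type I keratin of intestine and urothelium, read 4.21, 4.01 and 4.21 in M0505 cells and 4.05, 4.20 and 4.06 in STOSE cells. The arrays of the lines overlapped and all lay under the olfactory receptor percentile. Their log2 fold change was −0.04 (95% interval −0.22 to 0.14, limma adjusted p = 0.678).

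Among the basal keratins, *Krt14*, the type I chain of the basal pair, had the largest change. It read 6.48, 6.44 and 6.41 in M0505 cells and 9.54, 9.90 and 9.92 in STOSE cells. All STOSE arrays were at least 3.06 log2 units above all M0505 arrays. The log2 fold change was 3.34 (standard error 0.10, limma adjusted p = 6.50e-08), which ranked 55 among the 1000 genes called higher. Leaving out each array in turn gave 3.28 to 3.47.

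*Krt5*, the type II chain of that pair, read 4.64, 4.59 and 4.49 in M0505 cells and 4.80, 4.70 and 5.02 in STOSE cells. The gap between the nearest arrays was 0.07, and the M0505 mean lay under the olfactory receptor percentile. This was a log2 fold change of 0.27 (95% interval 0.06 to 0.48, limma adjusted p = 0.0326), far under 2-fold.

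*Krt15*, a type I keratin of basal cells and of the hair follicle bulge, went the other way from *Krt14*. It read 7.09, 6.66 and 6.72 in M0505 cells and 5.23, 5.48 and 5.59 in STOSE cells. The lines were 1.07 log2 units apart at the nearest arrays, and the STOSE mean of 5.43 lay near the olfactory receptor percentile of 4.74. The log2 fold change was −1.39 (standard error 0.13, limma adjusted p = 3.50e-05), a linear fold change of −2.62.

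*Krt17*, a type I keratin of skin appendages that is induced in wounded epidermis, read 4.91, 5.08 and 5.06 in M0505 cells and 5.35, 5.46 and 5.62 in STOSE cells. STOSE arrays were all above M0505 arrays, but both lines were within 1 log2 unit of the olfactory receptor percentile. *Krt17* had a log2 fold change of 0.46 (standard error 0.08, limma adjusted p = 0.00181), under 2-fold.

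*Krt80*, a type II keratin of differentiating epithelial cells, read 7.20, 7.42 and 7.36 in M0505 cells and 8.31, 8.57 and 8.51 in STOSE cells. The lines did not overlap. For *Krt80* the log2 fold change was 1.14 (standard error 0.09, limma adjusted p = 1.17e-05), a linear fold change of 2.20, and leaving out each array in turn gave 1.07 to 1.21.

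**Figure D2:**
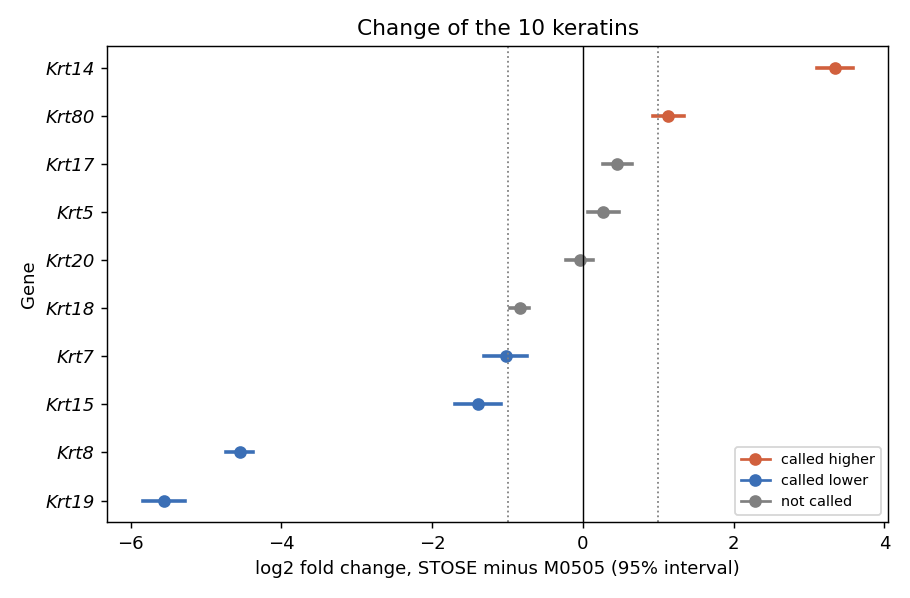
Log2 fold change of each keratin (STOSE minus M0505, point) with its 95% interval from limma (line) and the 2-fold lines dotted. The intervals of *Krt19*, *Krt8*, *Krt15* and *Krt14* lie wholly beyond 2-fold, and those of *Krt7* and *Krt80* cross it.

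STOSE replicate 1 was the lowest of the 3 STOSE arrays for 8 of the 10 keratins, *Krt8* and *Krt5* being the exceptions, whereas it was the lowest for 33.7% of all genes. Without it the changes of *Krt19* and *Krt14* were −5.41 and 3.47, and 3 keratins in place of 4 were called lower, *Krt7* being the one lost.

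Whether the chains of a pair moved together was asked with the difference of their log2 values on each array, which shows unequal change and not which chain changed. For *Krt8* over *Krt18* the M0505 arrays gave 0.02 ± 0.05 (SD, n = 3) and the STOSE arrays −3.69 ± 0.12 (SD, n = 3), so the ratio of the pair shifted by −3.71. The shift was −0.19 for *Krt7* over *Krt18*, with overlapping arrays. Against *Krt19*, the ratio of *Krt7* shifted by 4.53 and that of *Krt8* by 1.01, as the measured fall of *Krt19* was the larger in both pairs. Each gene is read by its own probes, and *Krt19* was near background in STOSE cells. The shifts therefore do not rank the loss of the transcripts. The other 4 pairs hold *Krt20*, which was under the olfactory receptor percentile in both lines, or *Krt5*, which was under it in M0505 cells. Their shifts were −4.51 for *Krt8* over *Krt20*, and −3.07, 1.66 and −0.19 for *Krt5* over *Krt14*, *Krt15* and *Krt17*. All but the last largely restate the change of the other chain. In the last, *Krt5* (0.27) and *Krt17* (0.46) both rose by little. None of these shifts is read as unequal change of a pair. In a two-sided exact permutation test over arrays, the 6 pairs with no overlap of the arrays had p = 0.1, the smallest that 3 against 3 arrays allow, and the other 2 had p = 0.2. Adjusted over the 8 pairs the values were 0.133 and 0.2, so none could pass 0.05 in this design.

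The other 40 keratin genes gave a background within the family. None was called in either direction by limma. At the adjusted p alone 12 were higher and 3 were lower, and the median log2 fold change was 0.14, against 0.08 over all genes and −0.44 over the 10. Their changes ran from −0.75 for *Krt23* to 0.53 for *Krt10*, a keratin of differentiated epidermis, and 18 of the 40 lay under the olfactory receptor percentile in both lines. *Krt16*, which is close to *Krt14* and *Krt17* in sequence and lies between them, read 4.55 ± 0.11 (SD, n = 3) on the M0505 arrays against 4.38 ± 0.14 (SD, n = 3) for STOSE. *Krt6a*, its usual type II partner, read 4.65 ± 0.11 and 4.70 ± 0.08. Probes of close relatives could share signal, and this was not tested.

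**Figure D3:**
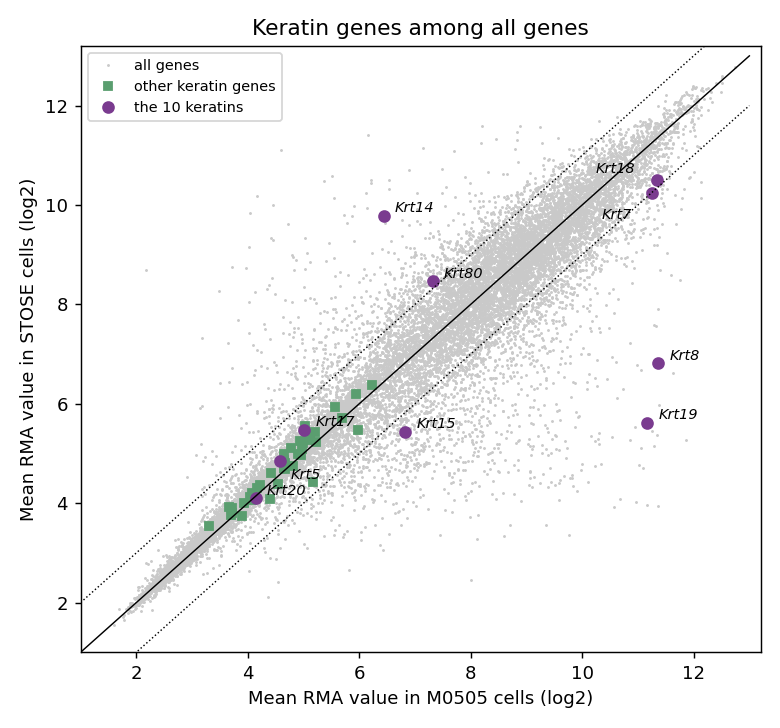
Mean RMA value (log2) in STOSE cells against M0505 cells for all genes (grey), the 40 other keratin genes (green squares) and the 10 keratins (purple), with equality as a solid line and 2-fold as dotted lines. The other keratin genes lie along equality at low values, and *Krt8*, *Krt19*, *Krt14* and *Krt15* stand away from it.

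Neighbouring keratin genes moved by different amounts. Order here is that of the measured keratin genes alone, placed by RefSeq. In the type II cluster *Krt80* and *Krt7* are neighbours in that order and moved in opposite directions, and *Krt8* lies between *Krt78* (log2 fold change 0.26) and *Krt18*. In the type I cluster *Krt15* and *Krt19* are neighbours in that order, both lower, and *Krt14* follows them with *Krt9* between (log2 fold change −0.50). The genes that flank the clusters were not called, namely *Atg101* (listed as 9430023L20Rik, 0.31) and *Eif4b* (0.63) at the type II cluster and *Smarce1* (0.08) and *Eif1* (0.06) at the type I cluster. The median log2 fold change was 0.17 over 751 genes of chromosome 15 and 0.11 over 1535 genes of chromosome 11.

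**Figure D4:**
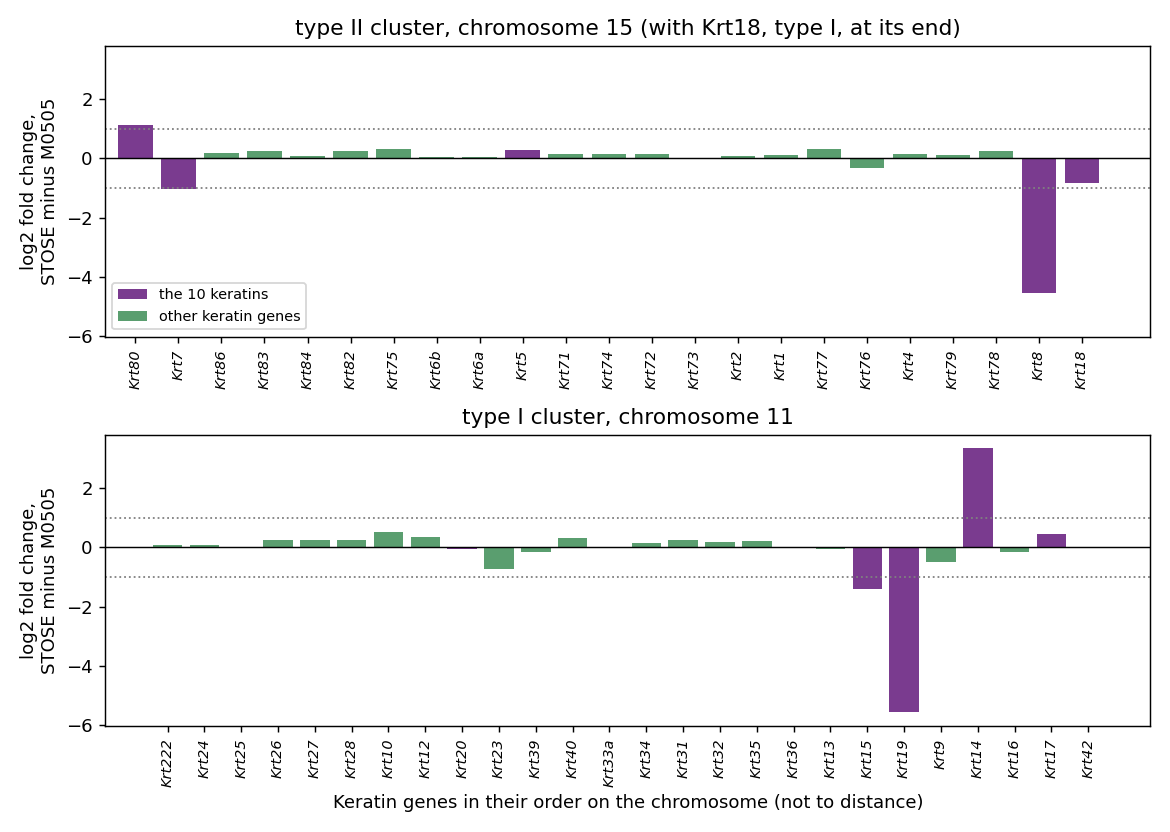
Log2 fold change (STOSE minus M0505) of 49 keratin genes in their order on chromosomes 15 and 11 in GRCm38.p6, with the 10 keratins in purple, the others in green and 2-fold dotted. The bars of *Krt8*, *Krt19* and *Krt14* are the tallest, with *Krt18* (−0.84) beside *Krt8*, *Krt9* (−0.50) between *Krt19* and *Krt14*, and *Krt15* (−1.39) on the other side of *Krt19*.

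Of 16 genes of other intermediate filaments, 4 were called higher and none lower, with a median log2 fold change of 0.18. For this and every list below, the share of all genes called was 4.9% higher and 7.59% lower. At the adjusted p alone it was 56.5% in either direction. *Prph*, which encodes the peripheral neuron filament peripherin, rose from 6.22 ± 0.46 to 10.50 ± 0.05 (SD, n = 3 each), a log2 fold change of 4.29 (limma adjusted p = 5.34e-07). *Nes*, which encodes nestin, rose from 5.66 ± 0.32 to 8.65 ± 0.12, a log2 fold change of 2.99. The nuclear lamin genes *Lmnb1* (1.32) and *Lmna* (1.28) rose as well. *Vim*, which encodes vimentin, the filament of mesenchymal and of cultured cells, was high in both lines at 12.16 ± 0.02 and 12.29 ± 0.00, and its log2 fold change was 0.13 (adjusted p = 0.0609).

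Of 20 genes for desmosomal, hemidesmosomal and other partners of keratin filaments, 2 were called lower and 2 higher, and the median was 0.10. *Ppl* encodes periplakin, a plakin that binds keratin filaments, and fell from 8.69 ± 0.06 to 5.58 ± 0.13 (SD, n = 3 each), a log2 fold change of −3.11 (limma adjusted p = 2.28e-08). Its STOSE mean lay near the olfactory receptor percentile. *Pkp2*, a plakophilin of desmosomes, fell by 1.64 on the log2 scale. *Ivl*, which encodes the cornified envelope protein involucrin, rose by 1.24 and *Pnn*, which encodes pinin, rose by 1.06, or by 0.97 without M0505 replicate 3, which is under 2-fold. *Dsp* (0.19), *Jup* (0.11) and *Plec* (0.85), which encode desmoplakin, plakoglobin and plectin, were not called. At the adjusted p alone 7 of the 20 were higher and 4 lower, against 56.5% of all genes in either direction.

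Among 18 transcription and splicing factors of epithelial cells, 1 was called lower and 1 higher. At the adjusted p alone 7 of the 18 were higher and 1 lower, against 56.5% of all genes in either direction. *Grhl1*, a grainyhead factor, fell from 6.86 ± 0.26 to 4.96 ± 0.16 (SD, n = 3 each), a log2 fold change of −1.90 (limma adjusted p = 5.88e-06). Its STOSE mean lay near the olfactory receptor percentile. *Klf4*, a factor of epithelial differentiation, rose by 1.15. *Trp63*, the regulator of basal epithelial identity, read 5.14 ± 0.03 in M0505 cells and 5.29 ± 0.10 in STOSE cells and was not called (adjusted p = 0.0793). Of the 18, 8 lay under the olfactory receptor percentile in both lines. Of 8 factors that repress epithelial genes, *Snai1* was called higher, with a log2 fold change of 1.43 (adjusted p = 3.85e-07). *Snai2* (0.58), *Twist2* (0.86) and *Twist1* (0.23) were higher at under 2-fold, and *Zeb1* (−0.51) and *Tcf4* (−0.25) were lower at under 2-fold. At the adjusted p alone 4 of the 8 were thus higher and 2 lower.

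The label of ovarian surface epithelium was set against 12 markers of that layer and of mesothelium. The mesothelial genes *Upk3b*, *Upk1b*, *Lrrn4* and *Wt1* had means from 10.76 (*Wt1* in STOSE cells) to 12.25 (*Upk3b* in M0505 cells), and their log2 fold changes lay between −0.63 and −0.15. Of the 12, 3 were called lower (*Lgr5* at −2.78, *Podxl* at −2.10 and *Bnc1* at −1.05) and none higher, and the median was −0.33. At the adjusted p alone 8 of the 12 were lower and 1 was higher, against 56.5% of all genes in either direction. *Cdh1*, which encodes E-cadherin, lay near the olfactory receptor percentile in both lines (4.79 ± 0.06 and 4.82 ± 0.10, SD, n = 3 each), and *Cdh2*, which encodes N-cadherin, was at 10.48 ± 0.09 and 10.67 ± 0.08.

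**Figure D5:**
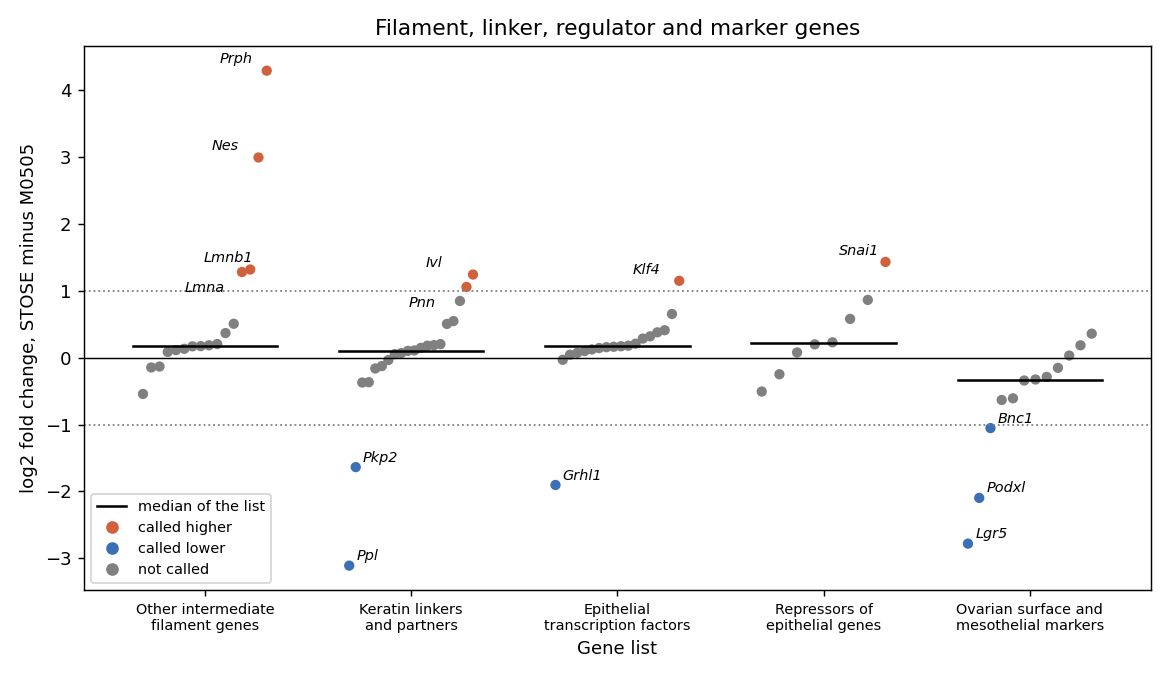
Log2 fold change (STOSE minus M0505) of every measured gene of 5 lists, with genes called higher in orange, called lower in blue and not called in grey, the median of each list as a black line and 2-fold dotted. Medians lie between 0.10 and 0.21 for 4 lists and at −0.33 for the ovarian surface and mesothelial markers, with *Prph* and *Nes* far above and *Ppl* and *Lgr5* far below.

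Markers of other cells were read beside the keratins. Of 9 granulosa markers, *Amhr2* (−5.01) and *Inha* (−3.93) were called lower, the median log2 fold change was −0.37, and 2 were higher and 5 lower at the adjusted p alone. Their summed linear signal ran from 4234 to 4816 over the M0505 arrays and from 585 to 602 over the STOSE arrays. Without *Amhr2* and *Inha*, which made up most of it in M0505 cells, it ran from 563 to 628 and from 422 to 460. The paper describes *Amhr2* as expressed in ovarian epithelium and fimbria too. Its fall is therefore not read as a change of granulosa cells. *Fshr*, *Cyp19a1* and *Hsd3b1* lay under the olfactory receptor percentile in both lines. Of 8 endothelial markers, *Kdr* was called lower (−5.17), the median was 0.07, and 2 were higher (*Cdh5* at 0.20 and *Tie1* at 0.22) and 2 lower at the adjusted p alone. Their summed signal ran from 946 to 1035 and from 239 to 264, but from 207 to 221 and from 215 to 247 without *Kdr*, ranges that overlap. *Pecam1* and *Emcn* lay under the percentile in both lines. *Kdr* lay under it in STOSE cells, at a mean of 4.41, so the size of its fold rests on a value at background. Of the leukocyte markers, *Cd68* was called lower (−2.82), while *Cd14* (0.97) and *Cd3e* (0.22) were higher at under 2-fold, and *Ptprc*, *Csf1r*, *Itgam* and *Emr1* lay under the percentile in both lines. The summed signal of 10 fibroblast and stromal markers ran from 6594 to 6806 and from 8285 to 9400, with a median log2 fold change of 0.22. *Acta2* (2.33) and *Thy1* (1.49) were called higher and *Col1a2* (−2.45) lower, and 5 were higher and 2 lower at the adjusted p alone. This sum was not computed without its called genes, and *Acta2*, with means of 9.24 in M0505 and 11.57 in STOSE cells, weighs on it. It is therefore not read as more stromal signal. The part of all these markers in the keratin values was not tested.

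On these arrays the median over genes was 0.20 log2 units lower in STOSE than in M0505 cells, so centring each array on its median adds 0.20 to every log2 fold change. With it 55.5% of all called genes were higher in STOSE cells, against 39.2% as deposited. *Krt7* was then at −0.83 and no longer called, and *Krt20* changed sign, from −0.04 to 0.16, while the other 8 keratins kept their direction and their call. The median log2 fold change over genes was 0.08 as deposited, so the typical gene was not lower in STOSE cells before centring.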

How the data were processed

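M0505 and STOSE cells were each read on 3 Affymetrix Mouse Gene 1.0 ST arrays. The authors normalized the arrays by RMA (the submitters' processing notes name Affymetrix Expression Console) and deposited log2 values with 1 column per array, which were used as given. Versions and the genome build are not given in the sources used here. The deposited table also holds the authors' mean log2 values and their linear ratio and fold change between the lines, which were not used. Each of the 6 columns was matched to its array by name, and 0 were left over.

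Of 28944 probe sets 23530 carried a gene symbol, and each of 20405 genes was read at its brightest probe set over the 6 arrays. An array has no read depth, and the number of arrays limits the precision. The comparison of the lines used limma 3.58.1 (lmFit, eBayes) under R 4.3.3, without covariates, and p-values were adjusted over all genes by Benjamini-Hochberg. A gene was called at an adjusted p under 0.05 and at least 2-fold. The code was tested on simulated data. Ratios of partner keratins were compared by an exact permutation test. The keratins, the gene lists and the olfactory receptor background (1134 probe sets) were chosen with earlier results of these data known.

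Named genes were the 10 keratins, the called genes of each list and the genes flanking the clusters, and others named as examples were picked after their values were seen. List symbols were matched to the table directly or through RefSeq synonyms, and *Flg*, *Tchh* and *Muc16* were not matched. A leukocyte marker is not reported here, nor is the summed signal of that list. Alternatives were a further quantile normalization, median centring, filters on the dimmest 25% or 50% of genes, the mean or the lowest of a gene's probe sets, the methods' t-test, an intensity trend with robust estimation, no fold threshold or 4-fold, the replicate number as a block, and leaving out each array. Promoter windows are those of RefSeq in GRCm38.p6.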

Additional observations from a re-analysis of the deposited data

How the results depend on the processing

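The calls and directions of *Krt8*, *Krt19* and *Krt14* held under every alternative, and over the 10 keratins 154 of 165 values kept both. Part of that count was fixed in advance. Each of the 10 has 1 probe set, so reading the mean or the lowest probe set could not change its log2 fold change. The filters on dim genes, the t-test, the intensity trend, the fold thresholds and the replicate block could not change it either. These could alter a call or leave a gene out, but not reverse a direction. The fold threshold moved the counts most. With no fold threshold 4 keratins were higher, with 12 and 3 of the other keratin genes higher and lower and 6454 and 5066 of all genes. At 4-fold 1 keratin was higher and 2 were lower, with 186 and 509 of all genes, and *Krt7*, *Krt15* and *Krt80* were no longer called. *Krt20* reversed to 0.16 with each array centred on its median. *Krt7* lost its call with that centring (−0.83) and without M0505 replicate 2 or 3 or STOSE replicate 1 (−0.997 to −0.89), and *Krt15* was left out with the dimmest 50% of genes, so 3 keratins were then called lower. Leaving out 1 array gave 3 to 4 keratins called lower and 2 called higher. With the replicate block 4 keratins were lower and 2 higher, as without it, and 1001 and 1548 of all genes were called. The numbers share nothing else in the labels, and deviations of same-numbered arrays correlated at 0.256, 0.042 and 0.249.

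Of the lists, centring called 2 repressors, 4 stromal genes and 1 leukocyte gene (*Cd14*) higher, against 1, 2 and 0, and *Bnc1* was then at −0.85 and no longer called. A further quantile normalization, or leaving out STOSE replicate 1, also called *Cd14* higher. With the dimmest 50% left out no epithelial factor and 1 epithelial marker were lower, against 1 and 2. At 4-fold 2 filament genes were higher and 1 linker lower. No probe signals were used, so background correction could not be varied.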

Other observations

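Among 15 genes of epithelial cells, of which *Cdh1* is also one of the ovarian surface markers, 2 were called higher and 2 lower in STOSE cells by limma, with a median log2 fold change of −0.04. *Cldn3*, a tight junction claudin, rose from 5.90 ± 0.20 to 9.98 ± 0.16 (SD, n = 3 each), a log2 fold change of 4.08 (adjusted p = 4.15e-08), and *Cldn4* (0.23) and *Cldn7* (0.15) were not called. The Kunitz-type protease inhibitor genes *Spint1* and *Spint2* went opposite ways, *Spint1* up by 2.71 and *Spint2* down (log2 fold change −2.26). *Lcn2*, which encodes lipocalin 2, fell by 1.36. *Epcam* read 5.35 ± 0.22 in M0505 cells and 4.48 ± 0.08 in STOSE cells, a difference under 2-fold.

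Of 41 keratin-associated protein genes, which belong to hair, *Krtap31-2* was called lower, at 4.72 in M0505 cells and 3.57 in STOSE cells, both under the olfactory receptor percentile, and none was called higher. Of 7 genes of cornified epidermis, *Ivl* was called higher, and 4 were higher and 1 lower at the adjusted p alone. *Krt1*, *Krt2* and *Lor* lay under that percentile in both lines.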
